A study of Canis lupus familiaris with 6 samples.

Results

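Tight junctions are the belts of strand and plaque proteins that seal the space between epithelial cells just below their apical surface. The strands are built from claudins together with the MARVEL-domain proteins occludin, tricellulin and MARVELD3, and immunoglobulin-type adhesion proteins such as JAM-A and CAR sit beside them. On the cytoplasmic side, ZO proteins and the cingulins form a plaque that ties these membrane proteins to actin and myosin. In kidney epithelium the junction sets how leaky the layer is to ions and water, and a lumen can only be kept apart from its surroundings where the seal is closed.

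The genes described here are the non-claudin plaque and transmembrane partners of that junction: TJP1, TJP3, CGN and CGNL1 in the plaque, OCLN, MARVELD2 and MARVELD3 with a MARVEL domain, and F11R and CXADR with immunoglobulin domains. They were taken as every probe set of the array whose annotation names exactly 1 gene and that gene is one of the 9. This gave 16 probe sets of the 42924 tested, for 9 of 15115 named genes. CXADR has 3 probe sets, TJP1, OCLN, MARVELD3, F11R and CGN have 2 each, and TJP3, MARVELD2 and CGNL1 have 1. Where a gene has several, they are numbered here from the highest mean level down. The rule is one of gene names and holds no measured value, though the 9 genes were listed with earlier results of these data known. Probe sets of 1 gene read the same transcripts and are not replicates of each other, and 6 of the 16 carry the suffix _s_at, which marks probes that match more than 1 transcript.

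The samples were MDCKII cells, a line of Madin-Darby canine kidney epithelium that polarizes in culture. In the 2D group, 3 samples were grown without extracellular matrix as a monolayer on plastic. In the 3D group, 3 samples formed cysts on Matrigel, which is an extract of basement membrane: 100 µl coated each 60 mm dish, and the MEM above it held a further 2% Matrigel. The labels name no altered gene and no drug in either group. All RNA was taken 36 h after plating, in bulk, so that fewer cells of a kind and less transcript per cell cannot be told apart. The labels call the 3 samples of a group biological replicates. They do not say whether a replicate number stands for a shared day. The p-values rest on the spread within groups of the arrays tested, and in part on that of other probe sets.

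The deposited values, 1 log2 expression value per probe set and array, lay on 2 scales. On the 4 arrays of replicates 2 and 3 the medians were 7.06 to 7.08, whereas the replicate 1 arrays had medians of 5.42 in 2D and 5.26 in 3D. Pearson's r across probe sets was 0.982 to 0.997 among the first 4 arrays and 0.888 for the replicate 1 pair, where the points are probe sets and share their arrays. The test was therefore limma on replicates 2 and 3 (n = 2 arrays per group), with p-values adjusted over all 42924 probe sets and a threshold of 0.05, and the replicate 1 difference is given beside it on its own scale, with no test. Of 8 measured epithelial markers, 7 lay above the array median on all 4 arrays, EPCAM at 13.58 to 13.77 among them. Of 16 measured fibroblast, endothelial and leukocyte markers, 11 lay below it on all 4, and none of the 24 markers passed the test. The endothelial marker CDH5 lay above the array median on all 4 arrays, at 8.34 to 8.47. The mean level of the 4 leukocyte markers was 6.675 and 6.76 on the 2D arrays of replicates 2 and 3 and 6.95 and 6.967 on the 3D arrays, and the log2 differences were 0.34 for CD14, 0.335 for CD3E, 0.16 for CD68 and 0.13 for PTPRC. CD14 lay above the array median on all 4 arrays and the other 3 below it. The labels name MDCKII cells only. The part of these marker values in the members' differences was not tested. Poly-A spike-in controls averaged 9.83 on 3D replicate 2 against 8.81 to 8.98 on the other 3 arrays of that scale.

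None of the 16 probe sets passed between 3D and 2D (limma adjusted p of at least 0.0502), where 6.61% of all probe sets passed, 3.65% with higher and 2.96% with lower values in 3D. The members that differed most were CXADR, 1.41- to 1.43-fold lower in 3D on its 3 probe sets, and CGN, 1.57-fold higher on 1 of its 2. At an unadjusted limma p under 0.05 there were 5 of 16, which were 3 of CXADR and 1 each of CGN and OCLN, against 23.5% of all probe sets. The other 11 had differences from -0.11 for MARVELD2 to 0.375 for TJP3 on the log2 scale. The median over the 16 probe sets was 0.128, against -0.005 over all probe sets.

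For 15 of the 16 probe sets the 95% interval of the difference lay inside a 2-fold change in either direction, and the exception was CGN probe set 1, with an upper bound of 2.04-fold. These intervals come from replicates 2 and 3, with 2 arrays per group. In replicate 1, which does not enter them, 4 of the 16 probe sets had a log2 difference of -1 or lower. Both 3D arrays lay above both 2D arrays for 6 probe sets, against 25.1% of all, and below them for 4, against 26.7% of all. The other 6 overlapped, against 48.2% of all probe sets.

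**Figure D1:**
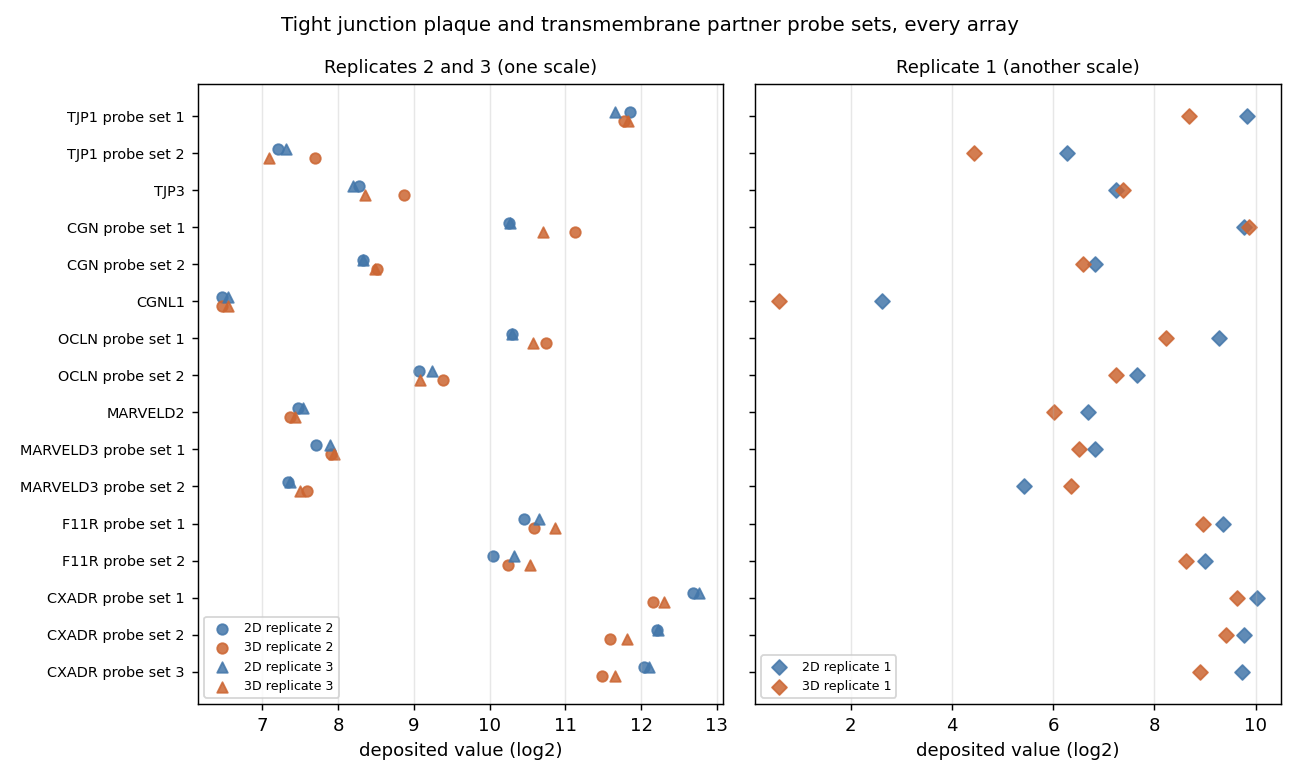
Deposited log2 value (x axes) of each of the 16 probe sets (y axis) on every array, with replicates 2 and 3 in the left panel and replicate 1, which is on another scale, in the right panel; blue marks 2D and orange 3D, circles replicate 2, triangles replicate 3 and diamonds replicate 1. The 3 CXADR probe sets have both 3D arrays below both 2D arrays at left and the 3D array below the 2D array at right, whereas TJP1 and CGNL1 overlap between 2D and 3D at left and are apart at right.

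TJP1 (Entrez 403752) encodes ZO-1, the PDZ-domain scaffold that binds claudins, occludin and JAM-A and links them to actin. Its brighter probe set read 11.86 and 11.65 on 2D replicates 2 and 3, and 11.77 and 11.83 on the same-numbered 3D arrays. The groups overlapped, and the log2 difference was 0.045 (SE 0.115, 95% interval -0.236 to 0.326, limma adjusted p = 0.874). In replicate 1 the same probe set read 9.83 in 2D and 8.68 in 3D, a log2 difference of -1.15.

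The second TJP1 probe set read 7.21 and 7.31 in 2D, and 7.70 and 7.09 in 3D. The 3D arrays lay on either side of both 2D arrays, and their gap of 0.61 was the widest between replicates among the members. The log2 difference was 0.135 (SE 0.202, limma adjusted p = 0.765), which turned to -0.17 without 3D replicate 2. Replicate 1 read 6.28 in 2D and 4.44 in 3D, a log2 difference of -1.84. Both TJP1 probe sets were thus lower in 3D in replicate 1 and overlapped between the groups in replicates 2 and 3, a contrast with no test here.

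TJP3 (Entrez 403852) encodes ZO-3, the ZO family member found mainly in epithelia. It read 8.27 and 8.20 in 2D, and 8.87 and 8.35 in 3D, so both 3D arrays were above both 2D arrays, 3D replicate 2 by far the more. The difference corresponds to 1.30-fold (log2 0.375, SE 0.179, 95% interval -0.062 to 0.812, limma adjusted p = 0.278), and its log2 value was 0.115 without 3D replicate 2 and 0.635 without 3D replicate 3. Replicate 1 read 7.25 in 2D and 7.38 in 3D, a log2 difference of 0.13.

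CGN (Entrez 483198) encodes cingulin, a coiled-coil plaque protein that binds ZO-1 and myosin. Its brighter probe set read 10.26 and 10.27 in 2D, and 11.13 and 10.71 in 3D. Both 3D arrays stood clear of the 2D arrays, which were 0.01 apart, but 0.42 apart from each other. The log2 difference of 0.655 (SE 0.154, 95% interval 0.278 to 1.032) was the highest among the members and did not pass (limma adjusted p = 0.0644). It was 0.865 without 3D replicate 3 and 0.445 without 3D replicate 2. After cyclic loess normalization it passed (limma adjusted p = 0.0495). In replicate 1 this probe set read 9.78 in 2D and 9.86 in 3D, a log2 difference of 0.08.

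On the second CGN probe set, both 2D arrays read 8.33 and the 3D arrays read 8.51 and 8.49. Here the 4 arrays were tight and the groups did not overlap, but the log2 difference was only 0.17 (SE 0.0965, limma adjusted p = 0.362), and in replicate 1 it was -0.23. The CGN probe sets differed from each other by 0.485 in their log2 difference, the widest such range among the 6 genes with several probe sets. As the mean of its probe sets CGN was 1.33-fold higher in 3D and did not pass (limma adjusted p = 0.0743 over genes).

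CGNL1 (Entrez 487574) encodes paracingulin, the cingulin relative that is shared between tight and adherens junctions. It read 6.47 and 6.55 in 2D, and 6.46 and 6.54 in 3D. The arrays of the groups could hardly lie closer: the log2 difference was -0.01 with a 95% interval of -0.258 to 0.238 (limma adjusted p = 0.975). Its mean over these 4 arrays, 6.505, was the lowest among the members and lay below the array medians of 7.06 to 7.08. The part of a low signal in this small difference was not tested. Replicate 1 gave 2.61 in 2D and 0.58 in 3D, a log2 difference of -2.03, which was the lowest among the members. Both of these values were below the lower quartiles of their arrays (3.52 in 2D and 3.38 in 3D), so the size of that difference is uncertain.

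Across the 6 plaque probe sets, 5 had a difference above 0 and 1 below in replicates 2 and 3, with a median log2 difference of 0.153. Both 3D arrays lay above both 2D arrays for 3 of them and the other 3 overlapped. In replicate 1, 4 of the 6 were lower in 3D.

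**Figure D2:**
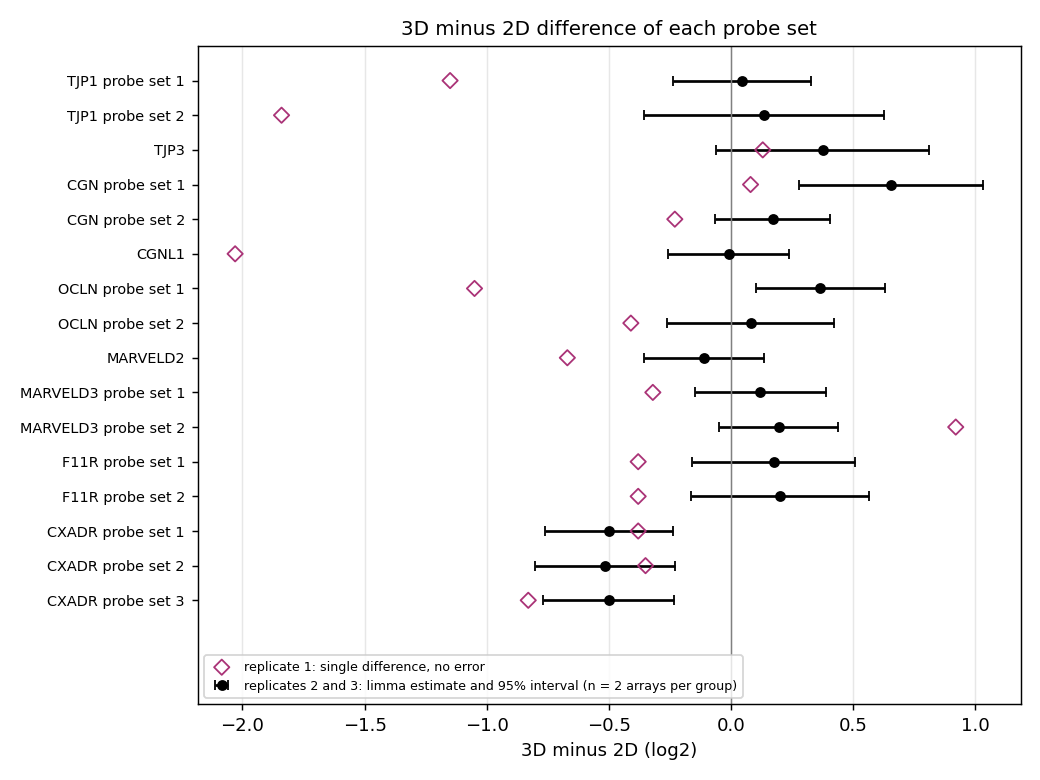
The 3D minus 2D difference on the log2 scale (x axis) of each of the 16 probe sets (y axis); black points and bars are the limma estimate and its 95% interval from replicates 2 and 3 (n = 2 arrays per group), not adjusted for the number of probe sets, and open diamonds are the single difference of replicate 1. The intervals of 5 probe sets leave out 0, 3 of CXADR below it and 1 each of CGN and OCLN above it, and the CXADR diamonds lie on the same side as its bars.

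OCLN (Entrez 403844) encodes occludin, the first MARVEL protein known from tight junction strands, which binds ZO-1 through its cytoplasmic tail. Probe set 1, read 10.29 on both 2D arrays, and 10.74 and 10.57 in 3D. The groups were apart by more than either pair was, and the log2 difference was 0.365 (SE 0.108, 95% interval 0.101 to 0.629), or 1.29-fold. It did not pass (limma adjusted p = 0.107). In replicate 1 OCLN read 9.28 in 2D and 8.23 in 3D on this probe set, a log2 difference of -1.05 in the opposite direction; that contrast between replicates was not tested.

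On OCLN probe set 2, the 2D arrays read 9.07 and 9.24 and the 3D arrays 9.39 and 9.08. The groups overlapped, with a log2 difference of 0.08 (SE 0.14, limma adjusted p = 0.805) that turned to -0.075 without 3D replicate 2. Replicate 1 read 7.66 in 2D and 7.25 in 3D, a log2 difference of -0.41. As the mean of its probe sets OCLN differed by 0.223 on the log2 scale (limma adjusted p = 0.292 over genes).

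MARVELD2 (Entrez 487240) encodes tricellulin, which is concentrated where 3 cells meet. It read 7.47 and 7.54 in 2D, and 7.36 and 7.43 in 3D. Both 3D arrays were below both 2D arrays, by little: the log2 difference was -0.11 (SE 0.1, 95% interval -0.355 to 0.135, limma adjusted p = 0.593). Replicate 1 also had the lower value in 3D, at 6.01 against 6.68 in 2D.

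MARVELD3 (Entrez 489723), the third MARVEL protein of the junction, has been linked to control of JNK signalling. Its probe set 1 read 7.71 and 7.89 in 2D, and 7.90 and 7.94 in 3D, with 2D replicate 3 all but level with the 3D arrays. The log2 difference was 0.12 (SE 0.11, limma adjusted p = 0.594), and -0.32 in replicate 1. Dropping 2D replicate 2 made it 0.03, and dropping 2D replicate 3 made it 0.21. Probe set 2, read 7.34 and 7.36 in 2D, and 7.59 and 7.50 in 3D.

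The groups of that second probe set did not overlap, and its log2 difference was 0.195 (SE 0.0999, limma adjusted p = 0.312). In replicate 1 it read 5.43 in 2D and 6.35 in 3D, and this difference of 0.92 was the highest among the members in that replicate. The annotation ties this probe set to Entrez 610700, which RefSeq's gene table for UU_Cfam_GSD_1.0 does not list, so its assignment to MARVELD3 is less sure.

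Among the 5 MARVEL probe sets, both 3D arrays lay above both 2D arrays for 3, below them for 1, and the groups overlapped for 1. The range of log2 differences was -0.11 to 0.365. In replicate 1, 4 of the 5 were lower in 3D.

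F11R (Entrez 478974) encodes JAM-A, an immunoglobulin-type adhesion protein that recruits the PAR polarity proteins to forming junctions. Probe set 1, read 10.45 and 10.65 in 2D, and 10.59 and 10.86 in 3D. Probe set 2, read 10.05 and 10.32 in 2D, and 10.24 and 10.53 in 3D. On both probe sets replicate 3 was above replicate 2 in either culture, and the groups overlapped.

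The F11R log2 differences were 0.175 (SE 0.136, limma adjusted p = 0.519) and 0.20 (SE 0.149, limma adjusted p = 0.496). They were 0.04 and 0.055 without 3D replicate 3, and 0.31 and 0.345 without 3D replicate 2. In replicate 1 both probe sets differed by -0.38, from 9.35 to 8.97 and from 9.00 to 8.62. The 2 probe sets thus gave nearly equal differences within each scale, and opposite signs between the scales.

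CXADR (Entrez 403772) encodes CAR, the coxsackievirus and adenovirus receptor, an immunoglobulin-type adhesion protein that lies with ZO-1 at epithelial junctions. Probe set 1, read 12.69 and 12.77 in 2D, and 12.16 and 12.30 in 3D. Probe set 2, read 12.21 and 12.23 in 2D, and 11.59 and 11.82 in 3D. On both, the lower of the 2D arrays was well above the higher of the 3D arrays; their names share a stem, so they may read the same stretch of transcript.

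Probe set 3 of CXADR, read 12.04 and 12.11 in 2D, and 11.49 and 11.66 in 3D, again without overlap. The log2 differences of the 3 probe sets were -0.50 (SE 0.107), -0.515 (SE 0.117) and -0.50 (SE 0.11), within 0.015 of each other. Their limma adjusted p of 0.0502, 0.0585 and 0.0539 lay just above the threshold. The 95% interval of probe set 1 runs from 1.18- to 1.69-fold lower in 3D.

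The CXADR call turned on the setting. As the mean of its 3 probe sets, tested over genes, CXADR was 1.42-fold lower in 3D and passed (log2 difference -0.505, SE 0.102, limma adjusted p = 0.0395), where 7.63% of genes passed. Probe set 1 also passed with trend and robust priors (limma adjusted p = 0.0461), without dim probe sets (0.0463), with median centring (0.0473) and with cyclic loess (0.0484). With the replicate number as a block, where 0 of all probe sets passed, it did not pass (limma adjusted p = 0.166). Nor did it pass in any fit of all 6 arrays, where its log2 difference was -0.496 to -0.417. With 1 of the 4 arrays left out, its log2 difference was -0.57 to -0.43. Such a fit compares 1 array with 2, takes the spread from the group of 2 alone, and called 0 of the 42924 probe sets whichever array was left out, so its p is no guide to a single gene.

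In replicate 1 CXADR was lower in 3D as well on all 3 probe sets, at 9.64 against 10.02 in 2D for probe set 1, 9.42 against 9.77 for probe set 2, and 8.90 against 9.73 for probe set 3. These are log2 differences of -0.38, -0.35 and -0.83. Together with MARVELD2 and CGNL1, CXADR was a member whose probe sets all lay below 0 on both scales, although the CGNL1 difference was -0.01 in replicates 2 and 3 and turned to 0.03 without 2D replicate 3 or without 3D replicate 2.

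The balance of directions among the members was not alike on the 2 scales, a contrast that was not tested. In replicates 2 and 3, 11 of 16 probe sets were above 0, against 47.6% of all probe sets. In replicate 1, 13 of 16 were below 0, where 55.9% of all probe sets were, with a median of -0.38 against -0.14 over all. A difference of -1 or lower was seen for 4 of 16, both of TJP1 and 1 each of OCLN and CGNL1, against 19.7% of all probe sets.

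Of the members, 8 of 16 were above 0 in replicates 2 and 3 and below 0 in replicate 1, which held for 24.1% of all probe sets. They were both probe sets of TJP1, OCLN and F11R and 1 each of CGN and MARVELD3. Centring the replicate 1 arrays on their medians moved the members' median there to -0.22 and left 13 of 16 below 0, where 49.2% of all probe sets were; all 8 of these probe sets kept values below 0. With a single pair of arrays, replicate 1 has no error estimate, and how its values were made was not given in the sources used here.

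**Figure D3:**
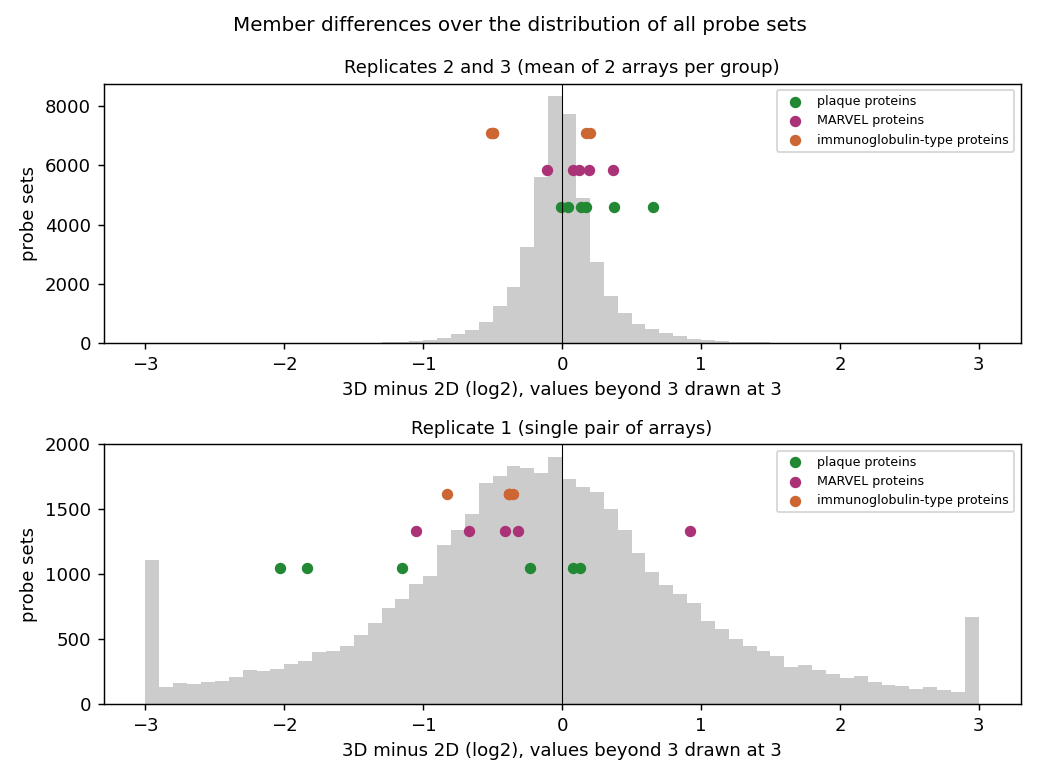
Number of probe sets (y axes) by 3D minus 2D difference on the log2 scale (x axes), all 42924 probe sets in grey, for replicates 2 and 3 (top) and replicate 1 (bottom); coloured points mark the 16 member probe sets by kind of protein, and their height has no meaning. In the upper distribution CXADR lies at the 4.6 to 4.9 percentiles, and OCLN probe set 1, TJP3 and CGN probe set 1 at the 90.7, 91.0 and 96.6 percentiles. The other members lie between the 31.0 and 81.6 percentiles. In the lower distribution the members lie mostly left of 0.

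The 3D arrays of replicates 2 and 3 were less alike than the 2D arrays for these genes. The median gap between the replicates was 0.17 in 3D and 0.075 in 2D over the 16 probe sets, against 0.14 and 0.10 over all probe sets. Of the 3D arrays, replicate 2 was the farther from the 2D mean for 12 of 16 members, CXADR, CGN, TJP3 and OCLN probe set 1 among them, against 54.1% of all probe sets. That array also had the brightest spike-in controls. Of 4 control pairs for the ends of actin and GAPDH transcripts, 2 were larger in 3′ minus 5′ terms on both 3D arrays, 1 was smaller on both (1.18 and 1.27 against 1.30 and 1.48 for an actin pair) and 1 overlapped. The larger GAPDH pair had a 3′ minus 5′ difference of 0.31 and 0.40 on these 3D arrays, against 0.20 and 0.16 on the 2D arrays. In replicate 1 the spike-in controls averaged 7.66 in 2D and 8.49 in 3D. The 3′ minus 5′ differences there were larger in 3D for the actin pairs, at 2.88 against 2.20 in 2D and -0.08 against -0.29. They were smaller in 3D for the GAPDH pairs, at 1.47 against 1.67 in 2D and 0.50 against 0.52. The part of these controls in the members' differences on either scale was not tested.

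To place the members among other junction genes, 49 further genes were listed, of which 44 had a probe set; each was read through its brightest one. Of these, 2 passed, both higher in 3D, and 42 did not, where 7.28% of all genes passed by the same reading. CLDN2, which encodes a claudin that forms pores for cations and water, read 7.02 and 7.47 in 2D and 9.47 and 8.63 in 3D (log2 difference 1.805, SE 0.29, limma adjusted p = 0.0256). CTNNB1, which encodes beta-catenin of the adherens junction, read 12.59 on both 2D arrays and 13.12 and 13.45 in 3D (log2 difference 0.695, SE 0.135, limma adjusted p = 0.0402). Both were also higher in 3D in replicate 1, CLDN2 by 1.23 and CTNNB1 by 0.97 on the log2 scale. They were 1 of 14 measured claudins and 1 of 7 adherens junction genes.

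With 1 array left out, the log2 difference was 1.385 to 2.225 for CLDN2 and 0.53 to 0.86 for CTNNB1. CLDN1 is named after its values were seen: it differed by -0.52 (limma adjusted p = 0.0613), and passed as lower in 3D by the gene-mean reading under which CXADR passed (0.0468) and with cyclic loess (0.0488). None of 16 measured plaque and adaptor genes passed by limma, with 4 at an unadjusted p under 0.05, against 25.1% of all genes read in this way, and a median log2 difference of 0.015. This group holds relatives and partners of the ZO and cingulin proteins, such as the MAGI scaffolds and MPDZ. Among 4 measured genes for other junctional membrane proteins, most of them relatives of JAM-A and CAR, none passed by limma, and 0 were at an unadjusted p under 0.05. Their levels ran from 5.44 to 5.59 for the dimmest to 7.52 to 7.78 for the brightest, where array medians were 7.06 to 7.08. The 3 angulins, which bring tricellulin to 3-cell contacts, likewise held none that passed and 0 at an unadjusted limma p under 0.05. Beside 25.1% of all genes, a count of 0 says little for groups of 4 and 3. The angulin LSR read 9.85 and 10.11 in 2D and 9.94 and 9.64 in 3D, overlapping, with a log2 difference of -0.19 (SE 0.149, limma adjusted p = 0.522), beside -0.11 for MARVELD2.

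**Figure D4:**
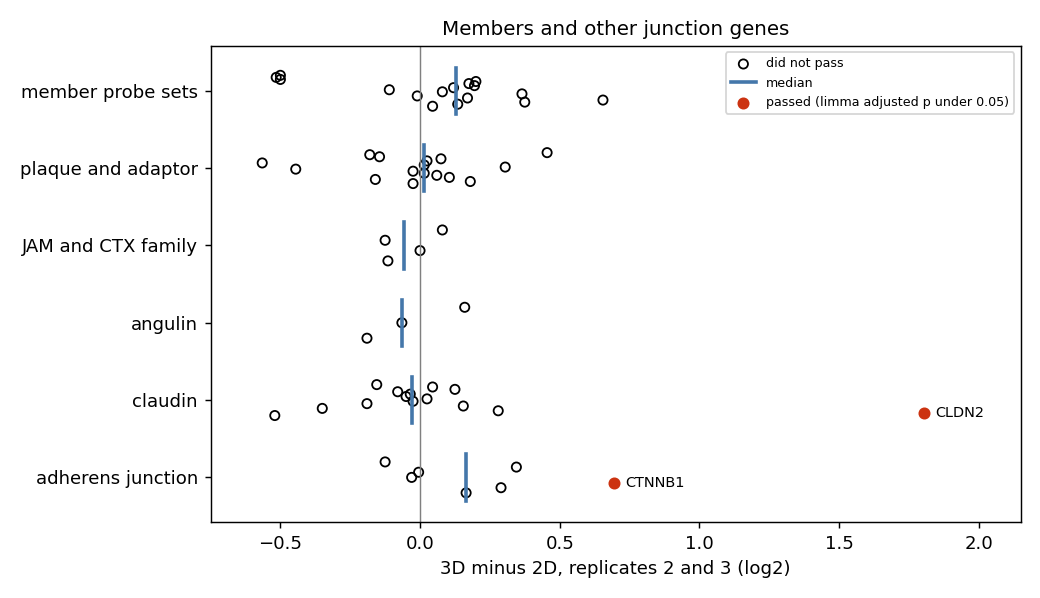
The 3D minus 2D log2 difference in replicates 2 and 3 (x axis) of the 16 member probe sets and of 44 other junction genes by class (y axis), each other gene through its brightest probe set; open circles did not pass, red points passed (limma adjusted p under 0.05) and blue bars are medians. The 16 members lie between -0.515 and 0.655, and the points that passed are CLDN2 and CTNNB1.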

How the data were processed

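Expression was measured on 1-colour Affymetrix canine arrays, 3 per group. The authors deposited log2 values, 1 for each probe set on each array. The submitters' processing notes list RMA and limma for all samples, but the replicate 1 values lie on another scale, and how these were made is not stated. Versions and any genome build are not stated in the sources used here, and the log base rests on those notes and the range of values.

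Of 43035 probe sets, 111 controls were left out. Platform annotation gave 1 symbol for 29254, several for 439, and left 13231 unnamed here. RefSeq's table for UU_Cfam_GSD_1.0 was used for names only, so no positions are given. No sequences were used here.

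Because the replicate 1 arrays lie on another scale, limma 3.58.1 in R 4.3.3 (lmFit, eBayes, two-sided, Benjamini-Hochberg, no filter on level, no block) was run on replicates 2 and 3. Standard errors, intervals and p-values are limma's. They draw the variance of each probe set toward a value shared by all (prior degrees of freedom 4.06, residual 2). Few arrays limit the precision. The code was tested on simulated data. Joins and plots used Python 3.11.15, pandas 2.3.3, numpy 2.4.6 and matplotlib 3.10.9. Alternatives were other scalings, priors, a filter, a block, all 6 arrays, gene means and leaving out each array.

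Members and lists were chosen with earlier results of these data known. Every member was named. Of other junction genes, those that passed and LSR were named, and CLDN1 after its values were seen. MPDZ and the MAGI scaffolds were named only as examples of their group. One further item is not reported here.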

Additional observations from a re-analysis of the deposited data

How the results depend on the processing

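Of the 16 member probe sets, 0 passed in the reported limma test (5 at an unadjusted p under 0.05), and 0 with the replicate block, with all 6 arrays on any scaling or block tried, or without any 1 array. The count was 1 with trend and robust priors, 1 with median centring, 2 without dim probe sets, 2 with cyclic loess and 1 of 9 genes by the mean of probe sets. All of these were CXADR, except 1 of the 2 under cyclic loess, which was CGN. Of all probe sets 2837 passed, against 0 with the replicate block (8325 at an unadjusted p under 0.05), 0 with all 6 arrays as deposited with or without the replicate block, 2 with all 6 quantile normalized or median centred, 0 with all 6 quantile normalized and the replicate block, and 0 to 0 when 1 array was left out, where a group of 1 array is assumed to vary like the other group and no call was made for any probe set. The 2 other junction genes became 0 in every one of these. The labels do not say that a replicate number marks a shared day, so the numbers are not taken as pairs. The deviations of same-numbered arrays had r = 0.001 across probe sets. That rests on 1 contrast per group and cannot settle whether such arrays share a day.

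In all 6 arrays as deposited, with or without the block, differences turned to -0.353 and -0.523 for TJP1, -0.107 and -0.083 for OCLN, -0.027 for MARVELD3 probe set 1 and -0.01 for F11R probe set 1. Quantile normalized, with or without the block, TJP1 had -0.323 and -0.447 and OCLN -0.078 and -0.066. Median centred, these were -0.31, -0.48, -0.063 and -0.04. The cause was not tested. Leaving out 1 array gave -0.06 to 0.15 and -0.17 to 0.44 for the TJP1 probe sets, -0.075 to 0.235 for OCLN probe set 2 and -0.05 to 0.03 for CGNL1, so that these changed sign. CXADR, MARVELD2, TJP3, CGN, MARVELD3 probe set 2 and F11R probe set 2 kept their sign in all 14 settings.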
